A study of Mus musculus with 4 samples.

Results

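Broad domains are the 1578 autosomal peaks of an MBD1 map that were at least 10000 bp wide and held a mean of at least 3 input reads per bin. They were chosen by width and input from 1 list of 37778 peaks, so they made up 4.18% of the list and 21.5 of its 148.2 Mb (14.5%). The name of the list carries a false discovery rate of 0.2, so it can hold false peaks. The map was made from the dentate gyrus of C57BL6 mice aged about 9 weeks, from a line that carries FLAG-tagged Mbd1. In the 2 ChIP libraries chromatin was precipitated with anti-FLAG antibody, and the 2 input libraries, from the same line, had no antibody. Which animals, and how many, went into a library is not stated in the labels. No anti-FLAG ChIP from untagged mice is among these 4 libraries, so signal of tagged MBD1 and background of the antibody cannot be told apart. The list gives 1 value per peak for each group and none per library, so replicate error is unknown and no test across samples was possible. Intervals reflect counting error, or how peaks vary among themselves, and nothing else.

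MBD1 belongs to the methyl-CpG binding domain family, several members of which, MBD1 among them, read methylated cytosine in CpG and recruit repressive complexes. Besides its methyl-CpG binding domain MBD1 has CXXC zinc fingers and a transcriptional repression domain, and it is known to work with the histone H3 lysine 9 methyltransferase SETDB1. In the dentate gyrus, where granule neurons are born throughout adult life, MBD1 is known for its part in adult neural stem cells. A wide region called as 1 peak differs from a narrow one in that the call spans more bins. Apart from the highest ChIP count, values of single bins are not in the list, so an unbroken excess over input cannot be seen. A bin spans about 200 bp, a size worked out from the deposited numbers.

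The width limit divides a continuous distribution. Of the 1626 peaks in the list that were at least 10000 bp wide, 44 autosomal peaks fell short on input, 32 of them without an input read, and 4 were on X or Y. Domain width had a median of 12200 bp and quartiles of 10882 and 14696 bp. Many were close to the limit: 747 (47.3%) were under 12 kb wide, 368 reached 15 kb, 119 reached 20 kb and 20 reached 30 kb. Just inside the width limit, 3 peaks of exactly 10000 bp on chromosomes 1, 19 and 5 had 59.7, 55.7 and 66.6 ChIP reads per bin. Just outside it, peaks narrower by 1 to 3 bp on chromosomes 18, 17 and 6 had 51.0, 64.1 and 59.6. The values on the 2 sides of the limit overlapped. The lowest input among the domains was 3.20 reads per bin, at chr5:94121800-94136743, and the highest among those left out was 2.64, at chr5:94079132-94100414, a peak of 21283 bp in the same stretch. The domain had a log2 ratio of ChIP to input of 3.12 and the peak left out had 3.40, so this 1 pair differed little. As a set, the 44 peaks left out on input were unlike the domains. Their median log2 ratio was 5.53, against 1.11 in the domains, and their median width was 18284.5 bp. Their median ChIP was 49.3 reads per bin, against 56.3, and the widest of them spanned 41729 bp.

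Mean ChIP varied little from domain to domain, and in most domains its excess over input was low. Median ChIP of the domains was 56.3 reads per bin (95% interval 56.2 to 56.5), with an interquartile range of only 54.3 to 58.8 and 5th and 95th percentiles of 51.3 and 68.3. Mean input was 12.2 reads per bin (interquartile range 10.8 to 13.8), or 29.5 once multiplied by the authors' constant of 2.42. ChIP was thus 1.92 times scaled input in the median domain, under 2 times in 968 domains (61.3%) and over 3 times in 14. The deposited log2 ratio, which the authors averaged over bins, had a median of 1.11 and ran from 0.59 to 5.03, with quartiles of 0.95 and 1.28. Its 5th and 95th percentiles were 0.72 and 1.57. The lowest log2 ratio in the whole list was 0.585, so the lower end of the domains lay near that of the list.

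Beside the 33943 autosomal peaks from 1000 to under 10000 bp wide that met the same input limit, the domains had slightly fewer ChIP reads per bin. ChIP in the comparison peaks had a median of 58.8 (interquartile range 55.0 to 63.7), against a nearly equal input of 11.9 (9.70 to 14.5), and the log2 ratio was 1.20. Median ChIP was lower in the domains on 19 of 19 chromosomes and the median log2 ratio on 18 of 19, chromosome 2 being the exception, at 1.2079 against 1.2068. These ChIP measures come from the same peak calling as the width that chose the domains, so the differences are a description and were not tested. Most of the difference lay with the narrowest peaks. Those from 5 to under 10 kb had a median ChIP of 56.7 and a log2 ratio of 1.11, as against 64.0 and 1.35 in those from 1 to under 2 kb.

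**Figure D1:**
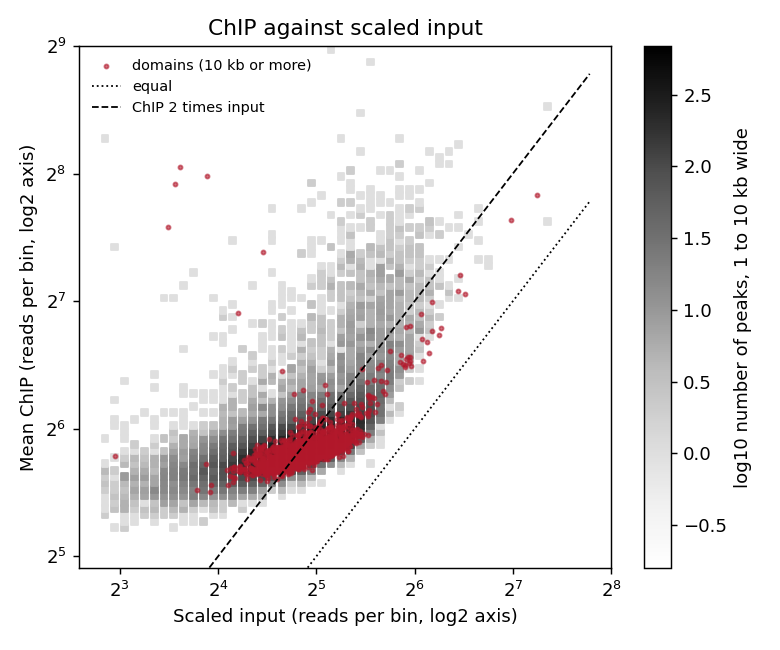
Mean ChIP (vertical, reads per bin) against the authors' scaled input (horizontal, reads per bin), both on log2 axes, for the 1578 domains (red points) and the peaks from 1 to under 10 kb (grey squares, shaded by number; 8 such peaks lie outside the axes). Most domains sit in a narrow band around 56.3 ChIP reads, inside the grey cloud, and a few stand far above the band or out at high input.

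At matched input the domains again had slightly fewer ChIP reads than the comparison peaks, except at the highest input. Among regions with 10 to under 12 input reads per bin, 492 domains had a median ChIP of 54.8 and 7634 comparison peaks 57.1. With 14 to under 18 input reads, 292 domains had 59.6 and 7563 comparison peaks 63.4. The log2 ratio was lower in the domains in all 6 bands of input examined, by small amounts such as 1.22 against 1.26 and 0.82 against 0.87 in these bands. In the highest band, from 18 input reads up, the order of ChIP alone turned, with 88.6 in 60 domains against 80.0 in 2432 comparison peaks. A smaller share of the domains than of the comparison peaks lay at either end of input. Input under 8 reads was found in 30 domains (1.90%) and in 11.1% of comparison peaks. Across domains ChIP rose with input (Spearman's rho 0.71, n = 1578 domains), and the log2 ratio fell with it (rho -0.91), input being the ratio's denominator. The domains share libraries and neighbourhoods and are not independent.

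In most domains no bin stood far above the mean. Evenness is given as the highest bin over the mean of all bins, which would be 1 for a flat domain and which grows with the number of bins by construction, because the highest of more bins is taken. Its median was 1.59 in the domains (95% interval 1.58 to 1.60, interquartile range 1.50 to 1.72), over a median of 61.5 bins, and it was under 2 in 1481 domains (93.9%). In the comparison peaks, with a median of 16 bins, evenness was 1.41 (1.31 to 1.54). The median rose along the width bands without a break at 10 kb: 1.40 from 2 to under 5 kb, 1.50 from 5 to under 10 kb, 1.57 from 10 to under 15 kb, 1.65 from 15 to under 20 kb, 1.71 from 20 to under 30 kb and 1.79 beyond. The highest bin held a median of 2.57% of a domain's ChIP reads, against 8.75% in the comparison peaks, which have fewer bins to share them.

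**Figure D2:**
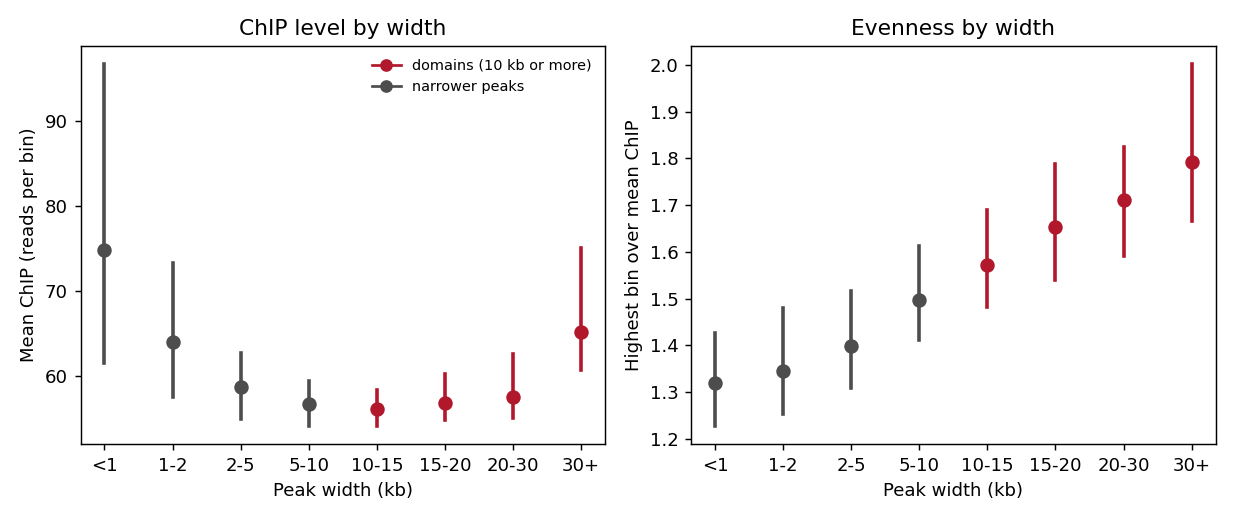
Median (points) and interquartile range (lines) of mean ChIP in reads per bin (left) and of the highest bin over mean ChIP (right), by peak width in kb, for autosomal peaks with at least 3 input reads per bin. ChIP falls from 74.8 under 1 kb to 56.1 at 10 to 15 kb and is 65.2 in the 20 domains of 30 kb or more, while the right panel rises through every band.

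The most even domain was chr6:76244045-76256274 (12230 bp), where the highest bin had 71 reads over a mean of 55.0, an evenness of 1.29. Next were chr7:61844119-61854393 (10275 bp), with 68 reads over 52.3, and chr4:112564133-112581082 (16950 bp), with 73 over 55.9. The means of the first and the third lay inside the interquartile range of all domains, 54.3 to 58.8, and that of the second lay below it. At the other end, 18 domains (1.14%) had a bin more than 3 times their mean, against 0.165% of comparison peaks. In chr15:21580406-21596173 (15768 bp) 1 bin held 1021 of 6233 ChIP reads, or 16.4%, an evenness of 12.9. In chr6:9825104-9841799 (16696 bp) it held 968 of 6801, an evenness of 12.0, and in chr2:63584239-63595984 (11746 bp) 436 of 4398, an evenness of 5.85. These 3 domains therefore contained a sharp summit inside a broad region, and their mean ChIP of 78.9, 81.0 and 74.5 was raised by it.

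Wide domains carried the authors' quality flag and low mean p more often than the list. The flag, which went with a low smallest p of a peak's bins, was carried by 903 of 1578 domains (57.2%, exact 95% interval 54.7 to 59.7%), against 30.8% of the whole list and 28.2% of comparison peaks. A smallest p over more bins is lower by construction. The mean p over bins was at most 0.05 in 178 domains (11.3%, exact interval 9.76 to 12.9%), against 3.17% of the whole list and 1.89% of comparison peaks. Among the domains both shares climbed with width. They went from 51.2% flagged and 6.86% with low mean p at 10 to under 15 kb to 90% and 60% in the 20 domains of 30 kb or more. Below 10 kb there was no such steady climb. Autosomal peaks under 1 kb that met the input limit had 44.0% and 7.64%, and those from 2 to under 5 kb 23.9% and 1.44%. The way in which p was computed by the authors remains unknown here, and width, the flag and p come from the same calling, so nothing was tested. High ratios went the other way. A log2 ratio above 2 was found in 7 domains (0.444%), against 7.73% of the whole list and 5.69% of comparison peaks. Above 1 it was found in 1049 (66.5%), against 71.1% and 70.4%. The whole list keeps peaks under the input limit. The 44 wide autosomal peaks which that limit removed had a median log2 ratio of 5.53, so the rule itself lowers the share of high ratios in the domains.

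Chromosome 17 had the most domains. It held 166, or 1.80 per Mb between its first and last peak, which covered 2666 kb (12.4% of all domain bases) and made up 10.5% of its peaks. Chromosomes 5 (152 domains, 1.02 per Mb), 4 (148, 0.978) and 7 (138, 0.929) followed. Chromosome 11 was the sparsest, with 37 domains (0.311 per Mb), next to chromosome 10 with 45 (0.355) and chromosomes 16, 18 and 8 at 0.410, 0.411 and 0.412. All autosomes together had 0.656 per Mb. The densities of domains differed 5.78 times from the sparsest to the densest chromosome, those of comparison peaks 2.37 times, and the orders were unrelated (Spearman's rho -0.04 over 19 chromosomes). Chromosome 16, for example, had 16.9 comparison peaks per Mb, next to the 19.1 of chromosome 3 at the top, and was among the 3 sparsest in domains. Without the 2 longest runs of neighbouring domains, described next, chromosome 17 kept 121 domains (1.31 per Mb) and stayed the densest, while chromosome 5 dropped to 115 (0.773), below chromosomes 4 and 7. The levels themselves hardly varied by chromosome, the median ChIP of domains lying between 54.6 on chromosome 14 and 57.4 on chromosome 5.

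**Figure D3:**
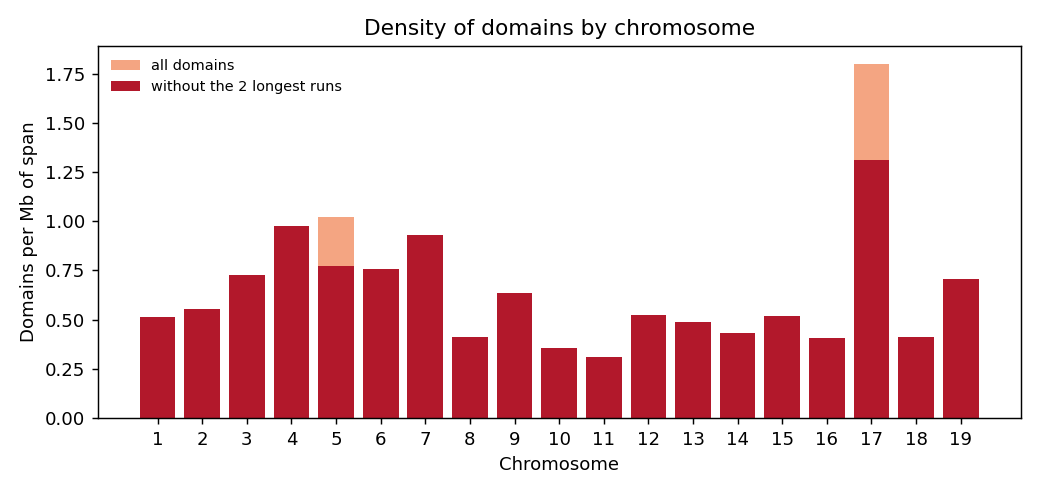
Domains per Mb between the first and last peak (vertical) on each autosome (horizontal), for all 1578 domains (light) and for the 1496 outside the 2 longest runs (dark). Chromosome 17 stands highest both ways, at 1.80 and 1.31 per Mb.

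Domains lay among other peaks. The median gap from a domain's edge to the nearest peak of any width was 5509 bp (95% interval 5047 to 5888). It was 9767 bp in the comparison peaks, and shorter for domains on 19 of 19 chromosomes. Among autosomal peaks that met the input limit, the median gap fell with width through every band, without a break at 10000 bp. It was 15400 bp in peaks from 1000 to under 2000 bp wide. It was 7245.5 bp from 5000 to under 10000 bp and 5813 bp from 10000 to under 15000 bp. A neighbour under 1 kb away was found for 128 domains (8.11%) and for 4.12% of comparison peaks, and only 20 domains (1.27%) had none within 50 kb, against 12.1%. Within 50 kb on either side of a domain, other peaks covered a median of 22.1% of bases, against 11.6% around comparison peaks. When peaks less than 1000 bp apart were merged before the width limit was applied, 1781 regions met it in place of 1578, with the same median ChIP of 56.3.

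**Figure D4:**
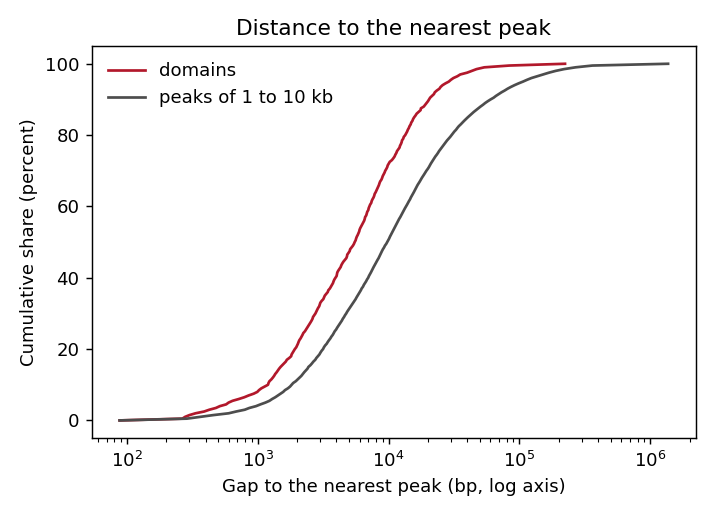
Cumulative share of domains (red) and of peaks from 1 to under 10 kb (grey), in percent, by the gap in bp to the nearest peak on a log axis. The curve of the domains lies to the left, with medians of 5509 and 9767 bp.

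Domains also stood near each other. Joined where less than 100 kb apart, a distance set without a biological reference, they formed 260 runs of 2 or more that held 828 domains (52.5%), and 750 domains were alone. The share depends on that distance: 609 domains (38.6%) were in runs when joined under 50 kb and 1412 (89.5%) under 1000 kb, and the longest run held 37 and 77 domains, against 45 at 100 kb. No background share, from comparison peaks or from domains placed at random, is given beside these. How unusual such runs are was therefore not tested. Of the runs 157 were pairs and 27 had 5 domains or more, with 270 domains in all. In windows of 5 Mb, domains occurred in 303 and comparison peaks in 500. The 10 windows with the most domains held 18.4% of them, against 6.72% of comparison peaks in their own 10. Both contrasts depend on the size of the sets, 1578 domains against 33943 comparison peaks. A smaller set leaves more windows empty and gives its richest windows a larger share by construction, and this was not adjusted for. The richest were 55 to 60 Mb on chromosome 5 (39 domains among 288 peaks), 60 to 65 Mb on chromosome 5 (37 of 207), 85 to 90 Mb on chromosome 2 (35 of 284) and 55 to 60 Mb on chromosome 17 (33 of 138, 23.9% of its peaks). Many peaks did not always mean many domains: between 95 and 100 Mb on chromosome 2, 229 peaks included 6 domains, and between 100 and 105 Mb on chromosome 10, 240 peaks included 7.

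The longest run was chr17:59075360-60686315. In 1611 kb it held 45 domains that covered 57.0% of it, and with 44 narrower peaks the covered share was 71.5%. ChIP in its domains had a median of 64.6 reads per bin (59.6 to 77.3), above the 56.3 of all domains, but input was also higher, at 15.6, and the log2 ratio was 0.96 (0.65 to 1.33), below the 1.11 of all domains. The run was thus higher in ChIP and in input and not in their ratio. The quality flag was carried by 44 of its 45 domains, and 23 had a mean p of at most 0.05.

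The next run, chr5:59767337-61224989, held 37 domains in 1458 kb, which covered 42.8% of it, and all of its 104 peaks covered 66.0%. Its median ChIP was 61.9 (56.6 to 68.5), its input 13.5 and its log2 ratio 1.16 (0.84 to 1.66). Another run, of 13 domains, chr5:59004546-59644444, lay 123 kb before it with almost the same levels, 62.8 ChIP, 13.5 input and a log2 ratio of 1.15. The run with 14 domains, chr4:112311400-112963486, was 652 kb long and differed in level. There ChIP was 56.1, as in domains at large, but input was only 9.72, so the log2 ratio was 1.45.

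**Figure D5:**
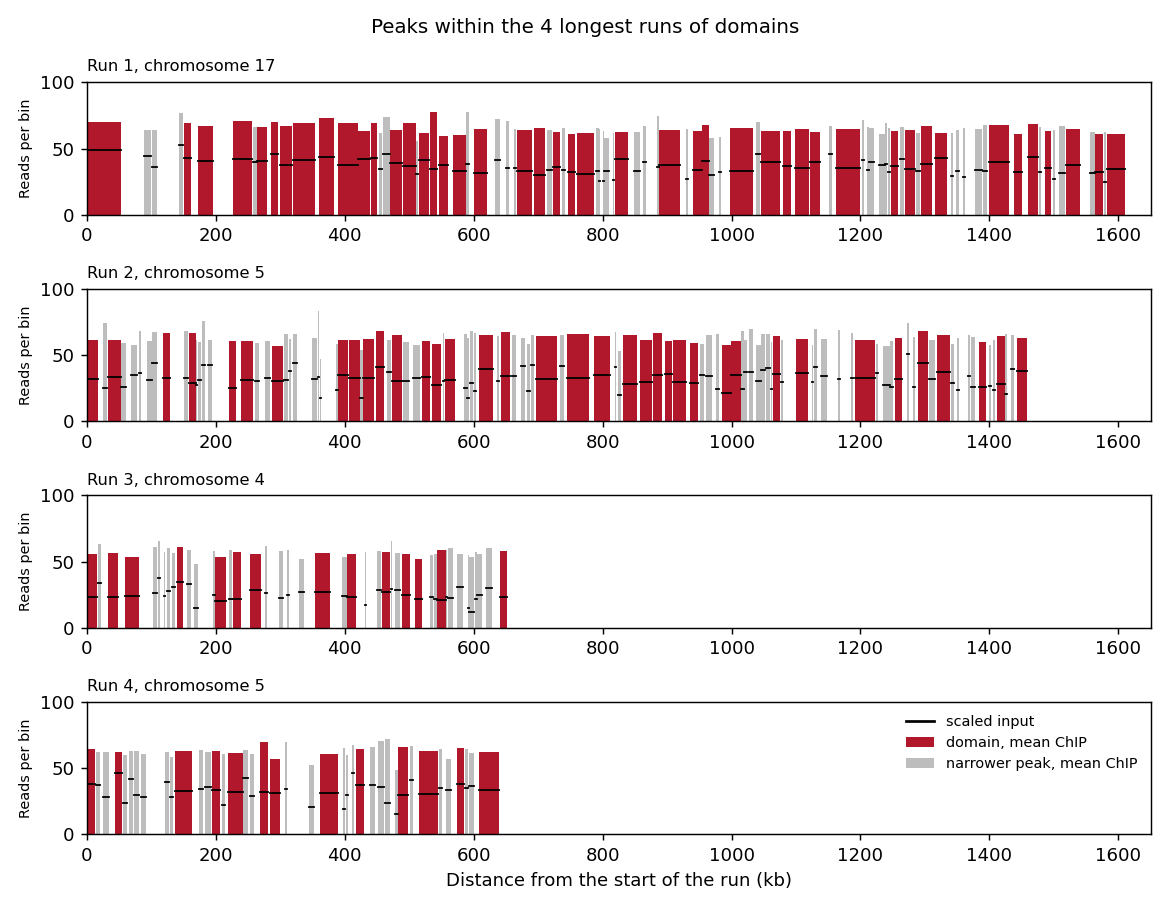
Peaks inside the 4 runs with the most domains, by distance from the start of the run in kb (horizontal). Bars give mean ChIP in reads per bin for domains (red) and narrower peaks (grey), and black lines the scaled input. The runs hold 45, 37, 14 and 13 domains, and the bars of domains lie between 52.3 and 77.3 reads per bin.

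Other runs of 9 or more were chr17:20542004-21067305 (12 domains, log2 ratio 1.19), chr7:10746640-11340999 (11, 1.11), chr11:73326408-73781130 (10, 1.13), chr17:38466795-38972199 (9, 1.25) and chr2:87465400-87919999 (9, 1.43). The run on chromosome 11 held 10 of that sparse chromosome's 37 domains. Domains in runs of 5 or more were wider than lone ones (median 14682 against 11910 bp), with ChIP of 58.6 against 56.1 and log2 ratios of 1.14 against 1.07. The quality flag was carried by 85.2% of them and by 46.3% of lone domains, and a low mean p was found in 89 of 270 (33.0%) and 37 of 750 (4.93%). The 2 groups were not matched for width, and both shares climbed with width among the domains. Without the 2 longest runs, 136 of the remaining 1496 domains (9.09%) had a low mean p, which is still above the 3.17% of the whole list.

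Neighbours in a run resembled each other in level. Over 568 pairs of consecutive domains less than 100 kb apart, Spearman's rho was 0.56 for ChIP, 0.56 for input and 0.45 for the log2 ratio. For 367 consecutive pairs at least 1 Mb apart it was 0.09, 0.14 and 0.14. Width (rho 0.18) and evenness (0.12) were little alike even between near neighbours. Pairs share domains and libraries, and no p is given.

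The 20 widest domains, from 30064 to 53364 bp, were on chromosomes 17 (8 of them), 5 (4), 4 (3), 7 (2), 3, 9 and 13, and 9 belonged to the 2 longest runs. The widest of all opened the long run of chromosome 17. At chr17:59075360-59128723 (53364 bp, 268 bins) ChIP was 70.2 reads per bin over 20.1 of input, and the summed ChIP count was 1.45 times scaled input (95% counting interval 1.40 to 1.49). Its highest bin held 140 reads, an evenness of 2.00. It was therefore among the weaker domains by ratio (log2 0.65). The next, chr7:115451867-115503799 (51933 bp), was typical of domains in level. It had 58.7 ChIP over 12.3 input reads per bin, 1.98 times scaled input (1.90 to 2.05), with 104 reads in its highest bin.

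Only the third, chr3:25416057-25456616 (40560 bp), was strongly enriched. It had 252.9 ChIP reads per bin over 6.12 of input, 17.1 times scaled input, and its highest bin of 424 gave an evenness of 1.68. No single bin therefore made up its high mean, while values of the other bins are not in the list. The other 19 of the 20 widest had folds of summed counts between 1.44 and 2.11.

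Among these, 4 combined more ChIP with more input than other domains. At chr4:121687954-121726654 (38701 bp) ChIP was 93.5 over 24.9 of input (1.55-fold, 1.50 to 1.60). At chr4:61481237-61518349 (37113 bp) it was 89.9 over 25.8 (1.44-fold, 1.39 to 1.49), and this domain stood apart from all others named here, with the nearest peak 223253 bp away. At chr13:12975452-13009485 (34034 bp) ChIP was 112.0 over 25.6 (1.81-fold, 1.75 to 1.87), and at chr4:146888336-146918399 (30064 bp) 147.6 over 36.5 (1.67-fold, 1.62 to 1.72). In all 4 the input was at least 2 times the median of domains, and the ratio was below 2.

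The rest of the widest had ordinary or slightly raised ChIP. On chromosome 17 these were chr17:60237611-60274999 (64.9 ChIP reads per bin, 1.82-fold), chr17:60073282-60109186 (65.9, 2.00-fold, with a bin of 213 reads), chr17:59394850-59428765 (69.3, 1.69-fold), chr17:59963520-59996086 (63.7, 1.71-fold) and chr17:60474200-60506274 (68.0, 1.72-fold), all in the longest run. Outside it, chr17:61405178-61437528 (51.9, 2.06-fold) and chr17:20236448-20267132 (54.0, 2.08-fold) had fewer ChIP reads but a higher fold. On chromosome 5 they were chr5:60512041-60546599 (65.5, 2.02-fold), chr5:60464200-60496394 (64.3, 2.01-fold), chr5:59612886-59644444 (62.4, 1.85-fold) and chr5:60958719-60989787 (61.4, 1.87-fold). The last were chr7:11107331-11143328 (56.5, 1.98-fold) and chr9:38649427-38682377 (51.7, 2.11-fold), the latter the most even of the 20, with no bin above 72 reads. The quality flag was absent from that domain and from chr17:20236448-20267132, and present in the other 18.

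Mean ChIP reached 100 reads per bin in 20 domains (1.27%), against 4% of the whole list and 3.02% of comparison peaks. This limit was chosen after seeing the data. The 20 domains fell into 2 kinds. In 6 of them input was under the list's median of 11.9, and log2 ratios were 2.71 to 5.03. In the other 14 input was over 20, and log2 ratios were 0.61 to 1.79, with a median of 0.79. None lay between.

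The first kind was found on chromosomes 1, 3 and 8. The highest mean ChIP of any domain was at chr8:19934200-19949199 (15000 bp), with 264.6 reads per bin over 5.05 of input, 21.6 times scaled input (19.5 to 24.0). On chromosome 1 there were 4, in 2 places. At chr1:85075031-85090999 ChIP was 191.8 over 4.66 (17-fold, 15.3 to 18.9), and at chr1:85239232-85257399 it was 167.5 over 9.11 (7.60-fold, 7.09 to 8.16). At chr1:87480458-87496359 it was 242.4 over 4.88 (20.6-fold, 18.6 to 22.8), and at chr1:87510618-87528394 it was 120.2 over 7.60 (6.54-fold, 6.05 to 7.08). The 4 on chromosome 1 were uneven, with highest bins at 2.94 to 3.66 times the mean. A neighbour of 23968 bp, chr1:85264112-85288079, had 153.6 ChIP over 2.57 input reads and was left out by the input limit alone.

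The second kind was mostly on chromosome 4, which held 9 of the 14. The highest was chr4:146790200-146808599 (18400 bp), with 228.2 ChIP over 62.8 input reads, the highest input of any domain, and 1.50 times scaled input (1.46 to 1.55). It belonged to chr4:146763914-146987756, a run of 8 domains with a median ChIP of 101.7, an input of 25.1 and a log2 ratio of 0.72. At chr16:3232050-3249884 (17835 bp) ChIP was 199.4 over 52.3 (1.58-fold, 1.53 to 1.63). At chr8:19964730-19987141, 15.5 kb from the strongest domain of the first kind, ChIP was 134.9 over 36.0. Its fold of summed counts was 1.55, or 0.63 as log2, well below its deposited mean over bins of log2 ratios, 1.79. Input over 20 was seen in 37 domains in all, 17 on chromosome 4 and 7 on chromosome 3, with a median log2 ratio of 0.72. Chromosome 3 also held chr3:105923907-106106640, a run of 7 domains with a median ChIP of 92.4 and a median input of 23.8. This run was not the same set as the 7 domains with input over 20. The lowest log2 ratio was 0.5976 in the run and 0.5965 in that set. Repeated sequence at these places was not analysed here.

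The lowest ChIP was found in small domains with little input. At chr7:92895028-92905566 (10539 bp) ChIP was 45.4 over 6.25 input reads, 3.0 times scaled input (2.68 to 3.38). The next were chr15:46886683-46899451 (45.8 over 5.69, 3.32-fold), chr1:113376800-113387599 (47.2 over 6.31, 3.09-fold), chr1:110574267-110584366 (47.2 over 7.08, 2.76-fold) and chr15:46338204-46348799 (48.0 over 7.34, 2.70-fold). By fold these 5 stood above 19 of the 20 widest, and input is the denominator of that fold. Of the 20 widest domains, chr3:25416057-25456616 alone was also among the 5 with the highest ChIP and among the 5 with the highest log2 ratio.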

How the data were processed

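Positions are on mm9, and alignment was by Bowtie 0.12.7, per the submitters' processing notes. Not given in the sources used here were the peak caller, its handling of duplicates and how libraries were joined. Per the file headers, mean ChIP and input are signal, in reads per bin, and the highest ChIP value is a count in 1 bin. The log2 values, as deposited, are means of the ratio over bins, and the deposited −log10 values give the mean and smallest p-value of a peak's bins. Library totals, and so depth, are unknown. The number of bins was inferred as the one nearest to width over 200 that made both sums whole (tolerance 1e-06). It lay within 1 of that quotient in 82.4% of domains. Folds of summed counts have exact binomial 95% intervals, and reads can fall into more than 1 bin, so these are too narrow. Medians have binomial and shares Clopper-Pearson intervals. Named were the 20 widest domains, 5 each with the highest and lowest ChIP, 5 with the highest log2 ratio, the 3 most and least even, the largest run and 3 on each side of the width limit. Those by the input limit, other runs and those with 100 ChIP reads were added after seeing values. Domains and rules were chosen with earlier results of these data known. Genes, sequence and repeats of the domains were not analysed here, as no mm9 genome or annotation was used. Alternatives changed width, input, p and ChIP limits, merging and joining distances. Functions were tested on simulated data. Software was scipy 1.17.1, numpy 2.4.6, pandas 2.3.3 and matplotlib 3.10.9 under Python 3.11.15.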

Additional observations from a re-analysis of the deposited data

How the results depend on the processing

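Of 31 alternative values 13 stayed within 1.5 times a count or inside the 95% interval of a median. A width of 15000 bp left 368 domains, with ChIP 57.1, a log2 ratio of 1.12 and evenness 1.67. A mean p of at most 0.05 left 178, with 63.9, 1.19 and 1.65. ChIP at or above the list's median left 391, with 61.6, 0.94 and 1.65. Fewer domains follow from these limits by construction, and for the remaining shifts the cause was not tested. Leaving out the 2 longest runs, added after seeing the data, gave a ChIP of 56.1. Log2 of the mean counts with 1 added, also added later, gave 0.91 in domains and 1.02 in comparison peaks, the same order. Comparison peaks of 5000 bp or more had ChIP 56.7, a log2 ratio of 1.11 and evenness 1.50, so the differences in ChIP and ratio all but vanished against them. Merging peaks under 1000 bp apart gave 1781 domains and no minimum of input 1622. Runs numbered 215 and 220 with joining under 50000 and 1000000 bp, with 609 and 1412 domains in them. No paired analysis was possible because values are not split by library, and for that reason no replicate could be left out.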
